A study of Mus musculus with 18 samples.

Results

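Glucose enters mouse embryonic stem cells through facilitative transporters and is broken down to pyruvate and lactate by the enzymes of glycolysis. The 10 genes described here encode 2 of these transporters (Slc2a1 and Slc2a3) and 8 enzymes of the pathway (Hk2, Pfkl, Pfkp, Aldoa, Pgk1, Pkm, Ldha and Ldhb). They were taken by gene symbol from a table of 20703 genes. These symbols stood on 11 rows because Aldoa was listed under 2 Ensembl identifiers. ENSMUSG00000030695 was used for Aldoa, as the other identifier, ENSMUSG00000114515, held only 4 to 28 counts per library.

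RNA-seq was performed on E14 mouse embryonic stem cells (mESCs), a male line derived from the blastocyst, that were WT or carried a CRISPR deletion of exon 5 of Nsd1, a histone H3K36 methyltransferase gene. The deletion was made in cells with a 3×Flag knock-in at Nsd1 and was studied in 2 single-cell clones, KO-1 and KO-2, each of which is 1 clone. The sources used here do not say whether the WT libraries came from the parental or the knock-in line, so the tag and the deletion cannot be told apart. Cells were harvested at day 0, when they grew with LIF, and at day 2 and day 4 of monolayer differentiation without LIF and without feeder fibroblasts. The study describes growth of these cells either on feeder fibroblasts or on gelatin. Feeder cells may have been present at day 0, so differentiation and their removal cannot be told apart between day 0 and the later days. With 2 biological replicates per line and day, 2 WT and 4 KO libraries were compared at each day, 18 libraries in all. Libraries held 9309874 to 23921193 counts, with a median of 15721348, and the lowest count of any of the 10 genes in any library was 704. The shallowest were the 2 WT libraries of day 2, with 9309874 and 9356867 counts, against 14595828 to 19445827 in the KO libraries of that day.

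Values are given as normalized counts, the counts of a library divided by the size factor of the authors. Differences are log2 fold changes of the variance stabilized (VST) values, from a limma fit to all libraries at once, and p-values were adjusted across the 20703 genes by Benjamini-Hochberg. The call of a differentially expressed gene (DEG) followed the thresholds of the study, which require an adjusted p below 0.01 and a log2 fold change beyond 0.58 in either direction. Each change or difference given as a bare number is on this log2 scale, and each SE is its standard error. For KO against WT, the libraries of both clones were pooled without a term for clone, and WT was a single line. Each library was counted as an independent sample. SE and p-values therefore do not show how far a difference would hold in other lines or clones.

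Glycolysis starts with the phosphorylation of glucose by a hexokinase and commits carbon to the pathway at phosphofructokinase. It yields ATP at phosphoglycerate kinase and pyruvate kinase, and lactate dehydrogenase can then reduce pyruvate to lactate, which regenerates NAD+. mESCs are known for a high rate of glycolysis, and many of its genes can be induced by hypoxia-inducible factor (HIF), which binds a short element with the core ACGTG or GCGTG.

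Promoter sequences are shown for Ldha and Pgk1, the genes called lower in the KO libraries at both day 2 and day 4, and for Ldhb, the other lactate dehydrogenase, which was called higher at day 0 and day 2. Each is the 250 bases before a RefSeq start site on GRCm38.p6, a different build from the mm39 of the authors' alignment, read 5′ to 3′ on the strand of the gene, with the letters ACGTG or their reverse complement CACGT in capitals.
Ldha, chr7:46845554-46845803, plus strand: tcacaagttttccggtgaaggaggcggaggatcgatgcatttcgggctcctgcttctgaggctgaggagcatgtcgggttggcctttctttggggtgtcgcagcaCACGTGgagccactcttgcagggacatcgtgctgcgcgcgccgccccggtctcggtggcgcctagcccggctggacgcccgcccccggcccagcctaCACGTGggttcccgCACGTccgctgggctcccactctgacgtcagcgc
Pgk1, chrX:106186850-106187099, plus strand: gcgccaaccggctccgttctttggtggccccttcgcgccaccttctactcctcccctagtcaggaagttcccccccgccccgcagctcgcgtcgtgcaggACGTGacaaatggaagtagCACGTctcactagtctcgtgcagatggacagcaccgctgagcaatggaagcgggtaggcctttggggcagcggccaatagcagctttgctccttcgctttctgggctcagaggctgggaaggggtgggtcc
Ldhb, chr6:142507958-142508207, minus strand: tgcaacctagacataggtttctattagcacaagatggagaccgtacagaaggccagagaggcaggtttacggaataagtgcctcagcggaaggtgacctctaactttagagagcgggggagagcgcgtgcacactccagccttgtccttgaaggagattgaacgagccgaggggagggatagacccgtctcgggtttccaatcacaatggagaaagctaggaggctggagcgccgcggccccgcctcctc
The Ldha window held ACGTG 5 times when both strands were read, and 4 of these matches lay in 2 copies of the palindrome CACGTG, which gives 1 match on each strand. Pgk1 had 2 matches and Ldhb 0. ACGTG was present in 16.6% of the 32851 windows of the same length and CACGTG in 6.02%. RefSeq windows were found for 9 of the 10 genes, with 13 start sites, of which 7 held ACGTG, and 2 of these, in Aldoa, overlapped each other. Hk2 had 2 matches at its start site, while Slc2a1 and 1 of the 2 sites of Pkm had 1 each. Neither Pfkl nor Pfkp held ACGTG in this window. A second start site of Ldha, downstream of the one shown, also had 0. GCGTG, present in 28.2% of all windows, was found at least once at Slc2a1, Pfkl, Pfkp, Ldhb and the second Ldha site.

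The Nsd1 transcript (ENSMUSG00000021488) was measured first as a check of the genotypes. It had 3374 and 3660.0 normalized counts in the WT libraries of day 0 and 635 to 837 in the 4 KO libraries. At day 2 the values were 2773 and 3344 in WT and 854 to 1024 in KO, and at day 4 they were 2425 and 2111 in WT and 575 to 1103 in KO. Every KO library lay below both WT libraries of its day, with log2 fold changes of −1.69, −1.27 and −1.06.

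Cell type markers moved with the groups and stand beside all of the following results. All 10 markers of mESCs, among them Pou5f1, Nanog and Sox2, were detected in all 18 libraries. Their summed normalized counts were 87624 to 95421 at day 0, with Tdgf1 the most abundant. At day 2 the sums were 33392 and 29635 in WT and 33726 to 42317 in KO, and at day 4 they were 18496 and 19183 in WT and 25711 to 29199 in KO. Of the 10 markers 0 were called at day 0 by limma or limma-voom, with 6 at an unadjusted p under 0.05. At day 2, 6 were called higher in KO and Pou5f1 lower (−0.69), and at day 4, 8 were called higher, Sox2 by 2.72, and Tdgf1, the most abundant marker in WT at that day, lower (−1.07). Among all genes, 1.73%, 4.01% and 3.67% were called higher at day 0, 2 and 4, and 0.879%, 2.37% and 3.91% lower. The same shares stand beside the fibroblast genes that follow. Of 10 fibroblast genes, 3 collagen genes were called higher in KO at day 0, Col1a1 by 0.68, Col1a2 by 0.60 and Col3a1 by 0.62, and Pdgfrb was called lower, by a log2 fold change of −0.67. Thy1 was called lower at day 2 (−0.68), and Col1a1 and Pdgfrb at day 4 (−1.11 and −1.22), when Col1a1 had 1644 and 1522 normalized counts in WT and 282 to 717 in KO. Limma-voom called 13.3%, 23.9% and 23.9% of all genes in either direction at day 0, 2 and 4. It called 4, 0 and 1 of the 10 fibroblast genes higher at these days and 1, 2 and 5 lower. The summed normalized counts of these genes were 5105 and 4914 in WT and 6268 to 6921 in KO at day 0, 2907 and 2765 in WT and 2431 to 2549 in KO at day 2, and 4062 and 3876 in WT and 2221 to 3487 in KO at day 4. Fbln1 was the most abundant of them in WT at day 0 and Col1a1 in KO. Lum was at 0 in all 6 libraries of day 0 and Dcn had 0 to 11 normalized counts there. The part of cell composition in the results below was not tested. In these bulk libraries, fewer cells of a type and less RNA per cell cannot be told apart.

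Divided by the length of the exons in kb, the pyruvate kinase gene Pkm had the highest level of the 10 genes in WT at day 0, with 14331 ± 1197 normalized counts per kb (SD, n = 2). Aldoa followed with 12589.9, Pgk1 with 11948 and Ldha with 10295, and then the transporters Slc2a1 with 4540.1 and Slc2a3 with 3997. Hk2 and Ldhb, with 2103 and 2062 per kb, had overlapping replicate ranges. Pfkl had 1828 and Pfkp 843 per kb. With the longest transcript as the length, Pgk1 and Ldha exchanged places, Hk2 fell in the order to rank 9 and Pfkl moved up to rank 7. From day 0 to day 4 in WT, Pkm, Pgk1 and Pfkp kept their ranks of 1, 3 and 10, Ldha and Aldoa exchanged ranks 2 and 4, Slc2a3 passed Slc2a1, and Hk2 went from rank 7 to 9. Ldha held rank 2 at day 2 in WT, with 15210 ± 339 per kb (SD, n = 2), behind Pkm with 16338, whereas in KO at day 2 the ranges of Aldoa and Pgk1 overlapped, as did those of Pgk1 and Ldha, near 7896, 7870 and 7641 per kb. At day 4 in KO the ranges of neighbouring genes overlapped from Ldha, with 5815 per kb, through Pgk1 and Aldoa to Slc2a1, with 5087. Pfkp was last in every group, with 60.2 ± 0.05 per kb in WT at day 4 (SD, n = 2).

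**Figure D1:**
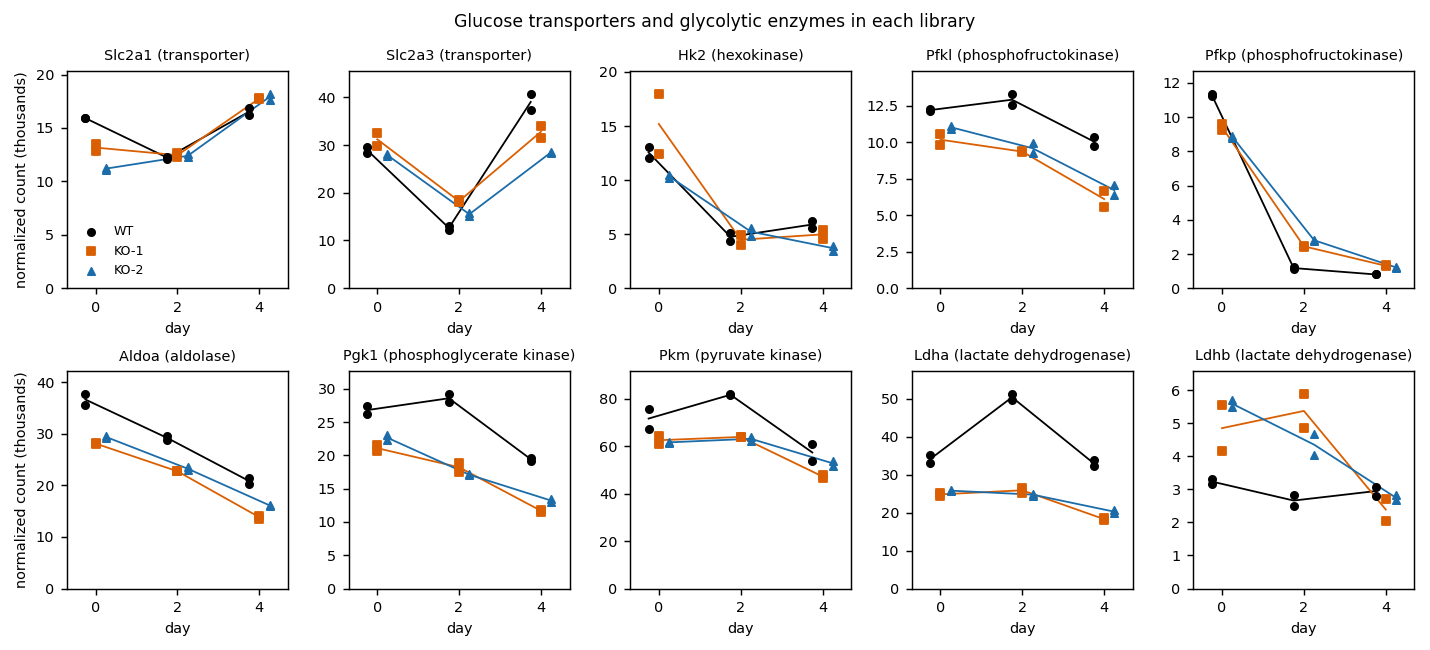
Normalized counts (in units of 1000) of the 10 genes in each of the 18 libraries against the day of differentiation, with circles for WT, squares for KO-1 and triangles for KO-2, shifted sideways for visibility, and lines through the means of the 2 replicates. At day 2 Ldha is at 49549.7 and 51139 in WT and at 24484 to 26477 in KO, and Pfkp is far lower at day 2 than at day 0 in all lines.

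The enzyme genes Aldoa, Pgk1, Pfkl, Pkm and Ldha were less abundant in every KO library than in WT at each of the 3 days, with differences from −0.19 for Pfkl at day 0 to −0.98 for Ldha at day 2. Ldhb at day 0 and day 2 and Pfkp at day 2 and day 4 were more abundant in every KO library. At day 0, 1 of the 10 genes was called higher in KO (Ldhb), beside 1.73% of all genes, and 0 were called lower, beside 0.879%, while 8 of the 10 had an unadjusted p under 0.05 in limma and limma-voom made the same number of calls in each direction. At day 2, 2 were called higher (Pfkp and Ldhb), beside 4.01% of all genes, and 2 lower (Pgk1 and Ldha), beside 2.37%. At day 4, 3 were called lower (Pfkl, Pgk1 and Ldha), beside 3.91% of all genes, and 0 higher, beside 3.67%, whereas limma-voom called 1 higher (Pfkp). All 10 genes are abundant, and among the 3728 genes with a mean normalized count of 1000 or more the share called in either direction was 5.39%, 15.9% and 13.0%. The median log2 fold change of the 10 genes was −0.24, −0.16 and −0.37 at the 3 days, and that of all genes was between −0.02 and 0.00. With limma-voom the medians at day 2 were −0.16 for the 10 genes and −0.14 for all genes.

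Separation of the libraries was more frequent than calls. At day 0 every KO library had less than each WT library for 7 of the 10 genes (24.3% of all genes did so) and more for 1 (23.1%). At day 2 these numbers were 5 below (31.4%) and 3 above (26.2%), and at day 4 they were 7 below (25.9%) and 2 above (23.9%). Among the genes with a mean normalized count of 1000 or more, the share below was 27.8%, 30.4% and 25.3% and the share above 38.1%, 44.7% and 33.4%. Summed, the 10 genes had 16846 ± 592 CPM, counts scaled to the library total, in WT at day 0 (SD, n = 2) and 14439 ± 58.4 in KO (SD, n = 4). At day 2 this sum was 15573 ± 81.2 in WT and 11924 ± 341 in KO, and at day 4 it was 13413 ± 426 in WT and 10591 ± 404 in KO. No KO library reached the lowest WT library of its day in this sum, which is given without a test.

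**Figure D2:**
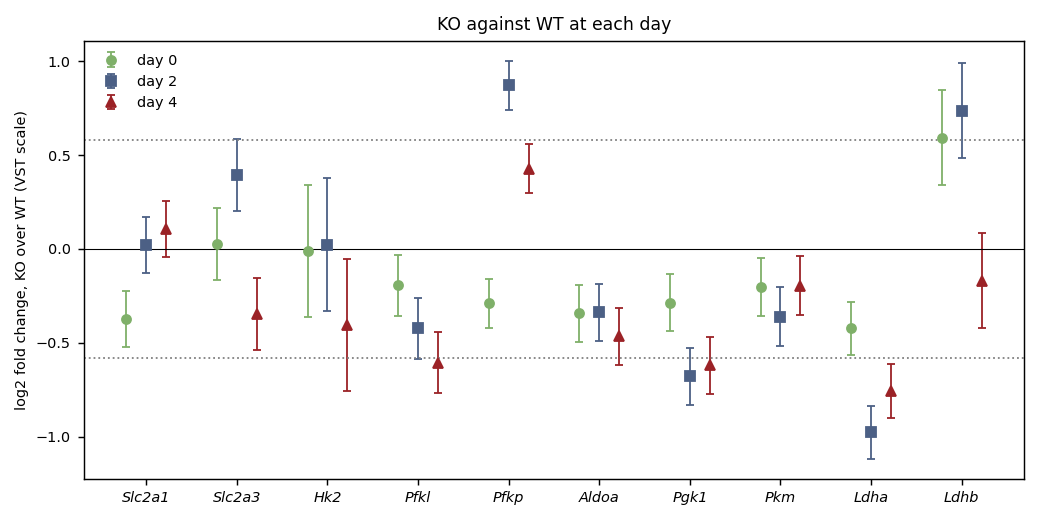
Log2 fold change of KO over WT on the VST scale for each of the 10 genes at day 0 (circles), day 2 (squares) and day 4 (triangles), with 95% confidence intervals of the limma fit, and dotted lines at the call threshold of 0.58 in either direction. Ldha is lowest at day 2 with −0.98, Pfkp is highest at day 2 with 0.87, and Ldhb passes from 0.59 and 0.73 to −0.17 at day 4.

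Neither transporter was called between the genotypes at any day. Slc2a1 (ENSMUSG00000028645), which encodes the widely expressed transporter GLUT1, stood at 15947 and 15889 normalized counts in the WT libraries of day 0, 13516 and 12813 in KO-1, and 11277 and 11109 in KO-2. All KO libraries were below WT at day 0, and KO-2 was the lower clone. The log2 fold change was −0.37 (SE 0.07, adjusted p = 4.04e-04 in limma with Benjamini-Hochberg adjustment), past the p threshold but short of the fold threshold. At day 2 the genotypes overlapped, with 12127 and 12313 in WT and 12259 to 12653 in KO, a log2 fold change of 0.02. At day 4 WT had 16873 and 16181 and KO 17641 to 18185, so that every KO library was above WT, with a log2 fold change of 0.11 (adjusted p = 0.272). The KO effect on Slc2a1 differed from that at day 0 by 0.40 at day 2 (adjusted p = 0.00714) and by 0.48 at day 4 (adjusted p = 0.001), short of the fold threshold in limma. With KO-2 alone the latter was 0.60, which was called.

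Slc2a3 (ENSMUSG00000003153) encodes GLUT3, a transporter with a high affinity for glucose. Its normalized counts at day 0 were 28359.7 and 29554 in WT, 32487 and 29886 in KO-1, and 28049.9 and 27677 in KO-2. At day 2 they were 12265 and 13013 in WT, 18004 and 18457 in KO-1, and 15216 and 15786 in KO-2, and at day 4 they were 40693 and 37353 in WT, 34020.1 and 31537 in KO-1, and 28379.8 and 28594 in KO-2. Slc2a3 dipped at day 2 in all lines, less deeply in KO, and was then lower in KO at day 4, with no overlap at either of these days. In WT it fell by 1.16 from day 0 to day 2 (SE 0.11) and rose by 1.58 to day 4 (SE 0.11), both called, and in KO it fell by 0.79 (SE 0.07) and rose by 0.84 (SE 0.07), both called. The genotypes differed by 0.02 at day 0, 0.39 at day 2 (adjusted p = 0.00145) and −0.35 at day 4 (adjusted p = 0.00486), log2 fold changes below the threshold. The change of the KO effect from day 0 was 0.37 at day 2 (adjusted p = 0.0469) and −0.37 at day 4 (adjusted p = 0.0391), not called. Both were computed against the same day 0 libraries.

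Hk2 (ENSMUSG00000000628), a hexokinase that binds to mitochondria, had the largest SE of the 10 genes. At day 0 it had 12026 and 13083 normalized counts in WT, 17969 and 12407 in KO-1, and 10240.1 and 10472 in KO-2. At day 2 the values were 4359 and 5148 in WT, 4003 and 4964 in KO-1, and 4876 and 5584 in KO-2. At day 4 they were 6246 and 5542 in WT, 5365 and 4599.8 in KO-1, and 3487 and 3932 in KO-2. The genotypes overlapped at day 0 and day 2, and all KO libraries were lower at day 4, where the difference was −0.40 (SE 0.17, adjusted p = 0.0682). With KO-2 alone it was −0.59, which was called. KO-1 lay closer to WT at this day, with mean normalized counts of 5894 in WT, 4982 in KO-1 and 3709 in KO-2. Hk2 fell by 1.30 from day 0 to day 2 in WT (SE 0.20) and fell by 1.26 in KO (SE 0.14), both called, and the KO effect changed by 0.03 between these days (adjusted p = 0.944).

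Phosphofructokinase is encoded by 3 genes, of which the liver type Pfkl and the platelet type Pfkp are in this group. Pfkl (ENSMUSG00000020277) stood at 12279 and 12122 normalized counts in the WT libraries of day 0 and 9793, 10554, 10937 and 11124 in KO. At day 2 it had 13307 and 12519 in WT and 9306, 9409, 9921 and 9258 in KO, and at day 4 it had 10325 and 9764 in WT and 5542, 6675, 7060.0 and 6371 in KO. No KO library reached WT at any day, and the gap was widest at day 4. The log2 fold change was −0.19 at day 0 (SE 0.08), −0.42 at day 2 and −0.60 at day 4 (SE 0.08, adjusted p = 1.88e-06 in limma with Benjamini-Hochberg adjustment). The call at day 4 lies at the threshold, with −0.57 without WT replicate 1 of that day and −0.54 without KO-1 replicate 1. KO-2 alone gave −0.54, quantile normalization −0.57 and centring on the library median −0.58, none of them called. The KO effect at day 4 differed from that at day 0 by −0.41 (adjusted p = 0.00731), below the fold threshold.

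Pfkp (ENSMUSG00000021196) had the largest change with differentiation. It stood at 11240 and 11360 normalized counts in the WT libraries of day 0, then 1219 and 1141 at day 2, and 806 and 807 at day 4. KO libraries had 9228, 9600, 8798 and 8924 at day 0, then 2469, 2438, 2825 and 2788 at day 2, and 1344, 1279, 1245 and 1195 at day 4. Every KO library was below WT at day 0 and above it at day 2 and day 4. Pfkp fell by 2.75 from day 0 to day 2 in WT (SE 0.07) and fell by 1.59 in KO (SE 0.05), and the KO effect changed by 1.16 between these days (SE 0.09, adjusted p = 2.75e-08 in limma with Benjamini-Hochberg adjustment). KO differed from WT by −0.29 at day 0 (adjusted p = 0.0014), by 0.87 at day 2 (SE 0.06, adjusted p = 8.83e-10), which was called, and by 0.43 at day 4 (adjusted p = 1.15e-05), short of the fold threshold. With limma-voom on the counts, where differences of weaker genes are not compressed, the values were −0.31, 1.15 and 0.65, and Pfkp was called at day 4 too. From day 2 to day 4 it fell by 0.80 in KO (SE 0.05), a call, while the WT value of −0.36 was not called. The opposite-strand gene Pitrm1 overlaps Pfkp, and the library kit does not keep the strand. Pitrm1 had means of 3400, 3079 and 2081 normalized counts in WT and 2874, 2518 and 2314 in KO at the 3 days.

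Aldolase A, phosphoglycerate kinase 1 and muscle pyruvate kinase act between fructose 1,6-bisphosphate and pyruvate, and their genes were lower in every KO library at each day. Aldoa stood at 35624 and 37674 normalized counts in WT and at 28047 to 29562 in KO at day 0, 28764 and 29630.0 in WT and 22727 to 23514 in KO at day 2, and 21522 and 20177 in WT and 13568 to 16160.3 in KO at day 4. The genotypes did not overlap at any day, and both were lowest at day 4. The log2 fold change was −0.34 at day 0 and day 2 and −0.46 at day 4 (SE 0.07 each), with adjusted p of 0.00117, 7.75e-04 and 2.69e-05 in limma, all short of the fold threshold. From day 2 to day 4 Aldoa fell by 0.60 in KO, a call that was lost without KO-1 replicate 1 or 2 of day 4 (−0.56 and −0.57), and the WT value was −0.47.

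Pgk1 (ENSMUSG00000062070) encodes the first ATP-forming enzyme of the pathway. At day 0 it stood at 26187 and 27434 normalized counts in WT and at 20614, 21580.0, 23039 and 22271 in KO. At day 2 the values were 29196 and 27989.7 in WT and 18932, 17508, 17206 and 16994.5 in KO, and at day 4 they were 19678 and 19209 in WT and 11506, 11869.7, 12954 and 13474 in KO. The genotypes were farthest apart at day 2, and no KO library reached WT at any day. The KO difference was −0.29 at day 0 (adjusted p = 0.00504, not called), −0.68 at day 2 (SE 0.07, adjusted p = 2.50e-07) and −0.62 at day 4 (SE 0.07, adjusted p = 6.10e-07), both called by limma with Benjamini-Hochberg adjustment. With quantile normalization the values were −0.38 and −0.51, and with KO-2 alone the value of day 4 was −0.54, none of them called. The change of the KO effect from day 0 to day 2 was −0.39 (adjusted p = 0.00972), short of the fold threshold.

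Pkm (ENSMUSG00000032294), the gene of the last step to pyruvate, was the most abundant of the 10 and was not called between the genotypes. It stood at 67439 and 75904 normalized counts in WT and at 60867 to 64207 in KO at day 0, 81925 and 81491 in WT and 62261 to 64029.7 in KO at day 2, and 60957 and 53793 in WT and 46484 to 53748 in KO at day 4. At day 4 the highest KO library was just under the lower WT library. The log2 fold change was −0.20, −0.36 and −0.19 (SE 0.07 each). Gm49759, a transcript on the same strand that overlaps Pkm, had a mean of 384 normalized counts. The counts do not separate the spliced forms of Pkm.

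Lactate dehydrogenase showed the widest contrast of the group. Ldha (ENSMUSG00000063229), whose product favours the reduction of pyruvate to lactate, stood at 32982 and 35171 normalized counts in the WT libraries of day 0 and 24416, 25163, 25723 and 25810.2 in KO. At day 2 it had 51139 and 49549.7 in WT and 26477, 25246, 24964 and 24484 in KO, and at day 4 it had 33711 and 32129.7 in WT and 17979, 18554, 19831 and 20623 in KO. WT libraries were highest at day 2, while the KO libraries lay between 24416 and 26477 at both day 0 and day 2. The KO difference was −0.42 at day 0 (adjusted p = 7.45e-05, not called), −0.98 at day 2 (SE 0.07, adjusted p = 5.43e-10) and −0.76 at day 4 (SE 0.07, adjusted p = 1.16e-08), both called by limma with Benjamini-Hochberg adjustment. KO-1 alone gave −0.94 and −0.83 and KO-2 alone −1.01 and −0.69 at these days. Quantile normalization reduced the value of day 2 to −0.59, which was still called.

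From day 0 to day 2, Ldha had a log2 fold change of 0.55 in WT (SE 0.08, adjusted p = 9.66e-06), just short of the fold threshold, and of 0.00 in KO (adjusted p = 0.999). The difference of these changes was −0.55 (SE 0.10, adjusted p = 3.14e-04), also just short of it. Both passed the threshold when WT replicate 2 of day 0 was left out, with 0.60 and −0.60, and the latter also with KO-2 alone (−0.61). From day 2 to day 4 Ldha fell by 0.60 in WT, a call that was lost without WT replicate 2 of day 4 (−0.57), and the KO value was −0.38.

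Ldhb (ENSMUSG00000030246), whose product favours the oxidation of lactate, stood at 3303 and 3172 normalized counts in the WT libraries of day 0, 4164 and 5540.3 in KO-1, and 5490.0 and 5690.3 in KO-2. At day 2 it had 2817 and 2506 in WT, 5878 and 4870.0 in KO-1, and 4672 and 4034 in KO-2, and at day 4 it had 2811 and 3086 in WT, 2057 and 2723 in KO-1, and 2821 and 2673 in KO-2. All KO libraries were above WT at day 0 and day 2, and the genotypes overlapped at day 4. Ldhb rose in KO over WT by 0.59 at day 0 (SE 0.12, adjusted p = 8.43e-04) and by 0.73 at day 2 (SE 0.12, adjusted p = 4.94e-05), both called by limma with Benjamini-Hochberg adjustment, and the value at day 4 was −0.17 (adjusted p = 0.308). The call at day 0 lies at the fold threshold. It was lost when any 1 library of that day other than KO-1 replicate 1 was left out, with values of 0.57 without WT replicate 2, 0.62 without WT replicate 1 (adjusted p = 0.0114), 0.56 without KO-1 replicate 2, 0.57 without KO-2 replicate 1 and 0.55 without KO-2 replicate 2. Ldhb fell by 0.78 from day 2 to day 4 in KO (SE 0.10), a call, and the WT value was 0.12. The KO effect at day 4 differed from that at day 0 by −0.76 (SE 0.17, adjusted p = 0.00197), a call lost without WT replicate 2 of day 0 (−0.74, adjusted p = 0.0144) or of day 4 (−0.70, adjusted p = 0.0195).

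Counted over the course of differentiation, 3 of the 10 genes fell from day 0 to day 2 in WT (Slc2a3, Hk2 and Pfkp), beside 4.02% of all genes, and 0 rose, beside 2.66%. The same 3 fell in KO, beside 1.77%, and 0 rose, beside 1.43%. From day 2 to day 4, WT had 1 rise (Slc2a3), beside 5.69% of all genes, and 1 fall (Ldha), beside 3.07%. KO had 1 rise (Slc2a3), beside 0.923%, and 3 falls (Pfkp, Aldoa and Ldhb), beside 0.565%. The KO effect was higher at day 2 than at day 0 for 1 gene (Pfkp), beside 2.08% of all genes, and lower for 0, beside 1.11%. At day 4 it was higher than at day 0 for 1 gene (Pfkp), beside 2.81%, and lower for 1 (Ldhb), beside 4.13%. The directions with 0 calls in limma also had 0 in limma-voom, and of the 10 genes 7, 6 and 6 had an unadjusted p under 0.05 in these 3 comparisons. Among genes with a mean normalized count of 1000 or more, the share that rose and the share that fell were 6.65% and 9.09% from day 0 to day 2 and 11.5% and 7.91% from day 2 to day 4 in WT, and 3.73% and 4.13% and then 1.88% and 1.53% in KO. For the KO effect they were 5.42% and 2.47% at day 2 and 5.12% and 6.57% at day 4. These comparisons share libraries and are not independent of each other or of those between the genotypes.

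Isozymes were set beside each other as shares of their summed level per kb of exon, a description without a test. The size of a share depends on the length used, here the union of exons. For Ldha this was 3310 bases, against 1815 for the longest transcript, and for Ldhb it was 1570, against 1304. Shares with the longest transcript were not computed. Ldhb made up 16.7% ± 1.03 of Ldha and Ldhb in WT at day 0 and 30.2% ± 2.54 in KO, 9.63% and 10.4% in the WT libraries of day 2 and 28.7% ± 2.51 in KO, and 15.9% ± 1.34 and 21.9% ± 1.88 at day 4 (SD, n = 2 for WT and 4 for KO). The KO libraries were above WT at each day, from 19.4% to 31.9% against 9.63% to 17.4%. Within phosphofructokinase, Pfkp made up 28.1% in WT and 26.3% in KO at day 0, 3.71% and 9.81% at day 2, and 3.52% and 7.34% at day 4. Pfkl took most of the remainder, with 88.0% in WT and 74.1% in KO at day 4. Slc2a3 made up 46.8% of the level of Slc2a1 and Slc2a3 in WT and 54.0% in KO at day 0, 33.3% and 39.6% at day 2, and 53.3% and 45.3% at day 4, so that the order of the genotypes turned by day 4. Hk2 made up 81.4% of Hk1 and Hk2 in WT and 81.7% in KO at day 0, 88.6% and 79.8% at day 2, and 95.1% and 84.7% at day 4.

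**Figure D3:**
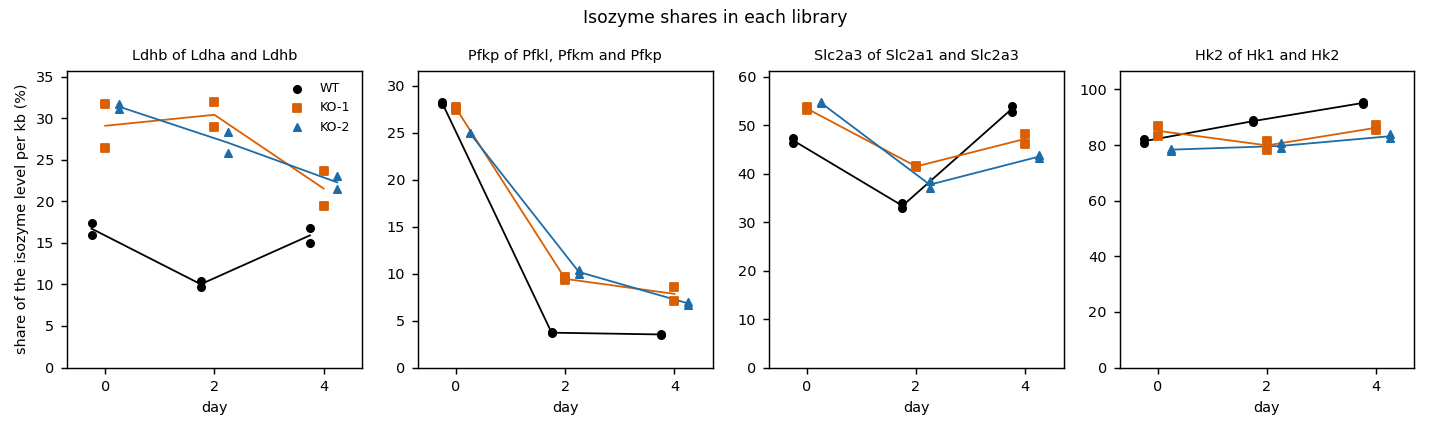
Share (%) of 1 isozyme in the summed level per kb of its family in each library against the day, with circles for WT, squares for KO-1 and triangles for KO-2 and lines through the means of the 2 replicates. The Ldhb share is higher in all KO than in all WT libraries, and the Pfkp share is 10.4% or less in every library of day 2 and day 4.

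Between the clones KO-2 and KO-1, limma called 0 of the 10 genes at day 0, 2 or 4, beside 0.0290%, 0.0435% and 0.251% of all genes. Limma-voom also called 0, and 3, 3 and 6 of the 10 genes had an unadjusted p under 0.05. The largest difference was that of Hk2 at day 0 (−0.50, adjusted p = 0.0732 in limma) and at day 4 (−0.37, adjusted p = 0.0567), and that of Ldhb at day 2 (−0.27, adjusted p = 0.31). Without KO-1 replicate 2 of day 0, which leaves KO-1 replicate 1 alone in its group, the difference of Hk2 was −0.76. The difference of Aldoa at day 4 was 0.21 (adjusted p = 0.0192), below the fold threshold, and those of Slc2a3 at the 3 days were −0.16, −0.23 and −0.20.

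Of 20 other glycolytic enzyme genes 19 were measured, and limma called 2 of them between the genotypes. Hk1, another hexokinase, stood at 4110.3 and 4077 normalized counts in WT and at 3526.5 to 4221 in KO at day 0, 834 and 903 in WT and 1585.5 to 1924 in KO at day 2, and 477 and 388 in WT and 1065 to 1141 in KO at day 4. The genotypes overlapped at day 0, and all KO libraries were above WT later, by 0.70 at day 2 and 0.79 at day 4 (SE 0.07 each), both called. Tpi1, which interconverts the triose phosphates, had 12738 and 13007 in WT and 8594 to 10118 in KO at day 0, 14314 and 13607 in WT and 7999 to 9085.5 in KO at day 2, and 10942 and 11189.8 in WT and 5144 to 6704 in KO at day 4. No KO library reached WT, and Tpi1 was called lower at day 2 (−0.66, SE 0.09) and day 4 (−0.83, SE 0.09), with −0.40 at day 0. Gapdh had log2 fold changes of −0.22, −0.43 and −0.23 at the 3 days, Eno1 −0.41, −0.50 and −0.25, and Pgam1 −0.25, −0.46 and −0.36, none of them called by limma or limma-voom. Gpi1 had 0.09, 0.05 and 0.25, and Pfkm 0.00, 0.09 and 0.42, also not called by limma. With limma-voom Pfkm at day 4 was 0.73 and was called. Limma called 0 genes of the list at day 0, where limma-voom called 3 and 9 had an unadjusted p under 0.05, and 1 higher and 1 lower at both day 2 and day 4, where limma-voom called 1 higher and 1 lower and then 3 higher and 2 lower. Of all genes, limma called 2.61%, 6.38% and 7.58% in either direction at the 3 days and limma-voom 13.3%, 23.9% and 23.9%, which also stand beside the lists that follow. The median of the 19 genes was −0.07, −0.04 and −0.03. Of 9 other glucose transporters measured, 0 were called by limma at any day, with 5, 5 and 6 at an unadjusted p under 0.05, and limma-voom called 2, 2 and 4 of them.

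Of the genes that direct the flow into and out of the pathway, limma called 0, 0 and 1 of the 5 genes of the PFKFB family and Tigar at day 0, 2 and 4, and 0, 2 and 2 of 16 genes for pyruvate and lactate handling, beside the same shares of all genes. Pfkfb3, which makes fructose 2,6-bisphosphate, an activator of phosphofructokinase, stood at 594 and 544 normalized counts in WT and at 392 to 501 in KO at day 0, 360.1 and 308 in WT and 193 to 246.5 in KO at day 2, and 2183 and 2094 in WT and 209.8 to 289 in KO at day 4. WT libraries rose at day 4, by 1.67 over day 2 (SE 0.07), and no KO library exceeded 289 then, a KO difference of −1.88 (SE 0.06, adjusted p = 1.62e-15 in limma with Benjamini-Hochberg adjustment). Both values are compressed on the VST scale, and the normalized counts lie further apart. Of this list (Pfkfb1 to Pfkfb4 and Tigar) limma-voom called 0, 1 and 2 genes at the 3 days, and 2 genes had an unadjusted p under 0.05 in limma at each day. Pdk1, a kinase that inhibits pyruvate dehydrogenase, stood at 3958.5 and 3824 normalized counts in WT and at 4517 to 5160.2 in KO at day 0, 2408 and 2627 in WT and 4325.5 to 5472 in KO at day 2, and 1004 and 956 in WT and 3933 to 4102 in KO at day 4. Every KO library was above WT at each day, by 0.28, 0.82 and 1.57, the last 2 called. For the change of the KO effect from day 0 to day 2, limma called 0 of the 16 genes, beside 3.19% of all genes. Among the genes for pyruvate and lactate handling, Pcx, the gene of pyruvate carboxylase, was also called higher at day 2 (0.61), and Pdhb, of a pyruvate dehydrogenase subunit, lower at day 4 (−0.61). Limma-voom called 1, 5 and 6 of these genes at the 3 days, and 9, 8 and 13 had an unadjusted p under 0.05 in limma.

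**Figure D4:**
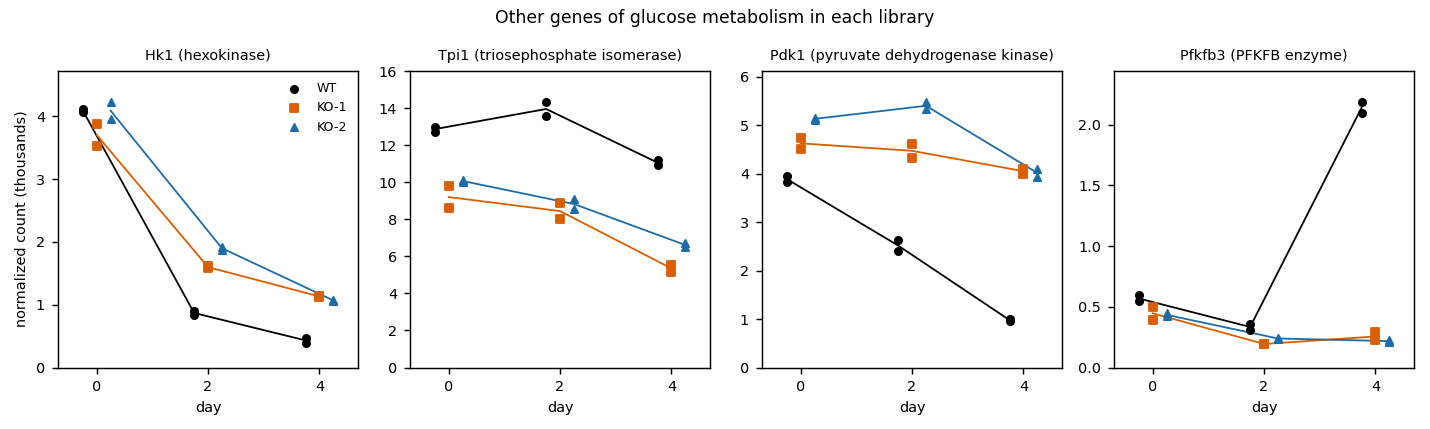
Normalized counts (in units of 1000) of Hk1, Tpi1, Pdk1 and Pfkfb3 in each library against the day, with circles for WT, squares for KO-1 and triangles for KO-2 and lines through the means of the 2 replicates. At day 4 Pfkfb3 is at 2094 and 2183 in WT and at 289 or less in KO, while Pdk1 is at 956 and 1004 in WT and at 3933 to 4102 in KO.

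Across the 18 libraries, the members followed a few patterns, given as Pearson r of VST values, which share the genotypes and days of the libraries and carry no test. Aldoa, Pgk1, Pfkl and Pkm went together, with r of 0.97 between Pgk1 and Pfkl, 0.94 between Aldoa and Pgk1, 0.93 between Aldoa and Pfkl, 0.90 between Pgk1 and Pkm, 0.87 between Pfkl and Pkm, and 0.84 between Aldoa and Pkm. Ldha had 0.87 with Pgk1, 0.86 with Pkm, 0.84 with Pfkl and 0.67 with Aldoa. Pfkp went with Hk2 (0.87) and had −0.02 with Ldha, and Slc2a1 ran against Ldhb (−0.74). Among 10228 genes with a mean normalized count of at least 100, the genes most like Pfkl were Pgk1, Tpi1 and Pgam1 (0.97, 0.96 and 0.96), and those most like Pgk1 were Pou5f1, Pgam1 and Idh3a. Got2, Mettl27 and Ybx3 were most like Ldha, with 0.98 for Got2. Gpa33, Pdk4 and Cobl were most like Pfkp, each with 0.99. Eif4a1, Senp8 and Eno1 led for Pkm, and Grhpr led for Aldoa with 0.96. Lama1 led for Hk2 with 0.97, Atg4d for Ldhb with 0.91, Tgoln1 for Slc2a3 with 0.93, and Cyp51, of cholesterol synthesis, for Slc2a1 with 0.94.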

How the data were processed

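Poly(A) RNA of 18 libraries, made with an unstranded kit, was sequenced. Per the labels and methods, the authors trimmed the reads with Trim Galore 0.6.7, aligned them to mm39 with STAR 2.7.11a, counted primary, nonduplicated fragments on exons with featureCounts 2.0.6, removed genes with an average count below 1 and applied DESeq2 1.42.0. The deposited values are DESeq2 variance stabilized values on a log2 scale. They were inverted to normalized counts and to counts, 100% of which were whole within 0.01. Lower counts are compressed on the VST scale, so a fold change understates that of weak genes. This was not limited to counts near 0. Nsd1, with means of 3517 in WT and 718 in KO at day 0, had −1.69 in limma and −2.31 in limma-voom. Most low counts were even numbers, and the cause was not tested.

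KO (both clones) and WT were compared in R 4.3.3 with limma 3.58.1, with a trended prior variance and 6 groups of genotype and day. The clones were compared in a fit of 9 groups. The 10 genes and all lists were chosen with earlier results of these data known, so the lists carry no test. Named were the 10 genes, Nsd1, the up to 4 most changed called genes of each list, 7 further glycolytic genes and Hif1a whether called or not, and the 3 genes with the highest r to each of the 10. Lengths came from GENCODE M21 on GRCm38, not mm39, as the union of exons. Promoters came from RefSeq on GRCm38.p6, and the table used had none for Slc2a3. Near copies (Pgk1-rs7, Aldoart1, Ldha-ps2) had at most 46 counts in any library. On simulated data for KO against WT at day 2 (20703 genes), limma called 88% of 200 genes changed by a log2 fold of 1 and 0 unchanged genes. Alternatives were each day alone, clones apart, a filter that drops genes under the 25th percentile, a replicate block, quantile normalization, median centring, no trend, limma-voom on the counts, other thresholds and each library left out. Figures used Python 3.11.15 and matplotlib 3.10.9.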

Additional observations from a re-analysis of the deposited data

Results flagged for a closer look

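The KO effect on Pfkp at day 2 differed from that at day 0 by 1.1606 on the log2 scale, and that at day 4 by 0.7168, both past the limma thresholds for the difference itself. All 4 KO libraries were below WT at day 0 and above it at the later days. For Ldhb the KO effect at day 4 differed from that at day 0 by −0.761, and every KO library was above WT at day 0 and the groups overlapped at day 4. The comparisons share the libraries of day 0.

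A single library stood apart in 2 of the 30 groups of 4 KO libraries. For Pkm at day 2, KO-2 replicate 1 had 62261 normalized counts and the other 3 libraries 63854 to 64029.7, a gap of 0.9006 of the range of the group. For Ldhb at day 0, KO-1 replicate 1 had 4164 and the others 5490.0 to 5690.3, a gap of 0.8688, both past Dixon's critical ratio. About 1 group in 20 is expected to be marked by chance.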

How the results depend on the processing

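The number of the 10 genes called between KO and WT at day 0, 1 in the main comparison, was 0 with each day fitted alone, with KO-1 only, with quantile normalization and with a fold limit of 1 (log2). At day 4 quantile normalization left 1 of 3 calls, and the change of the KO effect at day 2 gave 2 calls with KO-2 only. With the adjusted p under 0.05 and no fold limit, the calls were 7, 8 and 7 for KO against WT at day 0, 2 and 4, 6 and 8 over the days in WT, 5 and 9 in KO, 5 and 7 for the change of the KO effect, and 1 between the clones at day 4. Of all genes, 29.7%, 46.0% and 37.2% passed this threshold for KO against WT, 40.6% and 42.3% over the days in WT, 35.7% and 23.7% in KO, 21.7% and 27.0% for the change of the KO effect, and 12.8% between the clones at day 4. With a fold limit of 1, they were 0 for KO against WT at day 2 and day 4, 1 for WT from day 2 to day 4, 0 for KO from day 2 to day 4, and 0 for the change of the KO effect at day 4. Leaving out 1 library gave 0 to 1 call at day 0, 1 to 2 for the change of the KO effect at day 2 and at day 4, 1 to 3 for WT from day 2 to day 4, and 0 to 1 between the clones at day 0. The lone library of WT, or of a clone, left in such a fit is assumed to vary like the other groups.

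Same-numbered replicates did not regularly deviate together, with r from −0.62 to 0.64 and a mean of −0.05 over 36 pairs of groups (10228 genes, 13 pairs over 0.1). With the replicate block all 12 counts of calls were unchanged, at 1, 4 and 3 for KO against WT.

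Signs turned only for values that were not called. Hk2 in KO against WT was 0.24 at day 0 with KO-1 only, 0.072 with quantile normalization and 0.0086 with median centring, against −0.01, and −0.077 at day 2 with KO-1 only. Its change of the KO effect at day 2 was −0.32 with KO-1 only and −0.048 with quantile normalization. Pkm had −0.081 and −0.32 for the change at day 4 with the same settings. With KO-2 only, Slc2a3 had −0.054 at day 0, and the change at day 2 was −0.011 for Aldoa and −0.087 for Ldhb. Quantile normalization gave −0.059 for Pfkl and −0.057 for Pgk1 from day 0 to day 2 in WT, and limma-voom −0.0013 for Ldha over these days in KO. Leaving out 1 library gave −0.021 to 0.054 for Slc2a3 and −0.18 to 0.078 for Hk2 at day 0, −0.083 to 0.13 for Hk2 at day 2, −0.072 to 0.20 for Hk2 and −0.034 to 0.046 for Aldoa in the change at day 2, −0.081 to 0.10 for Pkm in the change at day 4, and −0.021 to 0.016 for Ldha and −0.0087 to 0.081 for Slc2a1 from day 0 to day 2 in KO.

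Over all genes limma-voom called 13.3%, 23.9% and 23.9% between KO and WT (limma 2.61%, 6.38% and 7.58%), 19.5% and 24.1% over the days in WT (6.68% and 8.76%), 16.3% and 10.3% in KO (3.20% and 1.49%), and 7.34% and 14.9% for the change of the KO effect (3.19% and 6.93%). Of the day 0 calls 66.4% were higher in KO, and 48.4% with limma-voom. Of the day 2 calls 62.9% were higher in KO, 73.9% after median centring and 43.2% with limma-voom, under which the median of all genes was −0.14 (−0.17 for WT from day 2 to day 4). For the change of the KO effect at day 2 this share was 65.2% and, after centring, 73.2%. Relative to that median, Ldha at day 2 (−0.99 in limma-voom) stayed lower. The causes were not tested.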

Other observations

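HIF and its regulators were examined as a further list. Of 9 genes, Epas1, which encodes HIF-2α, was called lower in KO at day 0, at 525 ± 20.9 normalized counts for WT (SD, n = 2) against 76.2 ± 15.2 for KO (SD, n = 4) and a log2 fold change of −1.03. Egln3, a HIF prolyl hydroxylase gene that is itself induced by HIF, was called lower at day 0 (1749 ± 20.8 in WT and 590 ± 161 in KO, −1.05) and at day 2 (−0.66). The VST scale compresses the fold changes of Epas1 and Egln3 at day 0, and the means of their normalized counts lie further apart. Hif1a had log2 fold changes of 0.30, 0.18 and −0.18 at the 3 days, without a call in limma. Limma called 2, 1 and 0 of the 9 genes lower at the 3 days, beside 0.879%, 2.37% and 3.91% of all genes. It called 0 higher, beside 1.73%, 4.01% and 3.67%. Limma-voom called 3, 1 and 0 lower and 0 higher, and 6, 5 and 6 had an unadjusted p under 0.05 in limma. The median of the 9 genes was −0.04, 0.12 and −0.002, and 4, 7 and 4 of them had a positive log2 fold change. Of 15 other HIF target genes, Vegfa, of an angiogenic growth factor, was called lower at day 0 (−0.68), P4ha1, of a collagen prolyl hydroxylase, higher at day 2 (0.67), and Fam162a lower at day 4 (−0.66). Limma called no other gene of this list, limma-voom called 5, 5 and 2 of its genes at the 3 days, beside 13.3%, 23.9% and 23.9% of all genes (limma 2.61%, 6.38% and 7.58%), and the median log2 fold change was −0.15, −0.01 and −0.02.

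None of the 7 pentose phosphate pathway genes and none of the 16 tricarboxylic acid cycle genes were called between the genotypes at any day by limma, and limma-voom called 0, 1 and 1 of the former and 1, 0 and 1 of the latter, with the same shares of all genes beside them. At an unadjusted p under 0.05 these numbers were 4, 6 and 3 and 10, 10 and 8. The median log2 fold change of the tricarboxylic acid cycle genes was −0.16, −0.16 and −0.12, and that of the pentose phosphate pathway genes −0.01, −0.21 and −0.03. Of 8 primitive endoderm markers, limma called 0 at day 0. Dab2 was called lower at day 2 (−0.67), beside 2.37% of all genes. Gata4 and Gata6 were called lower at day 4 (−1.49 and −1.48), beside 3.91%. Limma-voom called 3, 3 and 4 lower at the 3 days and 0 higher, and 3, 5 and 5 had an unadjusted p under 0.05 in limma. The log2 fold change was positive for 1, 2 and 2 of the 8. Their summed normalized counts at day 0 were 288 and 292 in WT and 114 to 164 in KO.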
